A study of Mus musculus with 3 samples.

Results

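The genes described here encode ubiquitin ligases and ligase partners that tune or restrain T cell activation, measured in regulatory T (Treg) cells. These T cells depend on the transcription factor Foxp3 and hold other immune cells in check. The 10 genes, Cbl, Cblb, Rnf128, Itch, Nedd4, Ndfip1, Ndfip2, Traf6, Peli1 and Tnfaip3, were chosen by name from 22457 measured genes, and all 10 were found in the deposited tables. Poly(A) RNA was sequenced from primary Treg cells of adult male mice. Their age is labelled as 4 months, and the number of animals is not stated. The labels give 3 technical replicate libraries, numbered 1, 2 and 3, of 1 biological replicate, and no strain, tissue, sort gate, treatment or control group, so no comparison between conditions was possible. Every SD below is the spread over the 3 libraries and says nothing of the spread between animals.

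Ubiquitin ligases attach ubiquitin to other proteins and so set how long these last or where they act. In T cells, Cbl family and GRAIL ligases dampen signals from the antigen receptor and from costimulation, and HECT ligases of the Nedd4 family, switched on by Ndfip adaptors, remove transcription factors such as JunB. Traf6, Peli1 and A20 (the product of Tnfaip3) act on the path to the transcription factor NF-kB, where A20 is a brake that NF-kB itself induces. Loss of several of these genes is known to cause inflammation in mice, and several are induced in anergic T cells.

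The libraries held 3316275, 3079004 and 2782259 counts. Levels are given as CPM, the count scaled to a library total of 1000000, and 3 counts, used as the limit that a count of 0 allows, correspond to 0.905 to 1.08 CPM. The Treg label was met by Foxp3, with 448, 447 and 407 counts, and all 10 Treg identity genes listed reached 1 CPM in each library. Markers of other cells were low and uneven: the summed level of 10 B cell markers was 63.3, 161 and 196 CPM in libraries 1, 2 and 3, of 10 monocyte and macrophage markers 58.2, 116 and 48.2, of 8 dendritic cell markers 44.0, 59.8 and 67.9 (of which Ccr7, a gene that T cells also express, gave 37.7, 37.7 and 56.1), and of 7 erythroid markers 6.33, 13.97 and 30.9. Of the monocyte and macrophage sum, Itgam gave 39.5, 58.8 and 19.4 CPM in libraries 1, 2 and 3. However, 92.4% of its runs of 31 coding bases also occur in other genes. No other marker of that list was lower in library 3 than in library 1. Cd68 gave 15.7, 22.1 and 16.9 CPM and Lyz2 0.302, 15.9 and 3.95. Among the defining markers, Clec9a of dendritic cells and Klf1 of erythroid cells had no count in any library, and the B cell factor Pax5 had 0, 1 and 1.

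Reads of related ligases can be told apart only where their sequences differ, so the stretches that code for the catalytic part of each pair are shown first. Cbl lies on chromosome 9 (44142976 to 44234049, minus strand) and Cblb on chromosome 16 (52031225 to 52208048, plus strand) of GRCm38, the assembly also called mm10. The stretch below codes for the RING finger, the zinc-binding fold that recruits the ubiquitin-carrying enzyme. It spans codons 379 to 417 of Cbl and 373 to 411 of Cblb in the longest annotated coding sequence. Capitals mark the bases that differ within the pair.
Cbl: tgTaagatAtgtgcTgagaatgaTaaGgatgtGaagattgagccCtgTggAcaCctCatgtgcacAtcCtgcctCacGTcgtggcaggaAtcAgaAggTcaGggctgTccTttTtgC
Cblb: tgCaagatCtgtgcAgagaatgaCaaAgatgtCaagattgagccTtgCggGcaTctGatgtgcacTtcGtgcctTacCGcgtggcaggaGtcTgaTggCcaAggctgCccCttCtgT
The RING stretches code for the same amino acid at 37 of 39 codons, yet 25 of 117 bases differ and the longest identical run is 11 bases.

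Itch (chromosome 2, 155133509 to 155226855, plus strand) and Nedd4 (chromosome 9, 72662346 to 72749852, plus strand) are HECT ligases, which carry ubiquitin on a cysteine of their own before passing it on. The stretch around the codon of that cysteine spans codons 820 to 843 of Itch and 842 to 865 of Nedd4, with capitals as above.
Itch: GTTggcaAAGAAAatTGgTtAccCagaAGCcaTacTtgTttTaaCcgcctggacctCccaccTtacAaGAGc
Nedd4: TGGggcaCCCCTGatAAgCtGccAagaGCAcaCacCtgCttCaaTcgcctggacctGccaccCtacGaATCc
In the HECT stretches 28 of 72 bases differ, 17 of 24 codons give the same amino acid, and the longest identical run is again 11 bases. Over whole coding sequences, 9 of the 10 genes shared no run of 31 bases with a transcript of any other gene. The exception was Cbl, which shared 12.4% of its 31-base runs (361 of 2912, of which 185 with the gene model Gm6695). By this measure the level of Cbl is less certain than the others. Exon bases outside the coding sequence of the 10 genes were not compared.

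All 10 genes were detected, meaning 1 CPM or more in each library, against 10611 of 22457 genes overall. Per coding length, 8 of the 10 lay above the median of coding genes with any count. The median of the 10 was 184 counts per coding kilobase (the coding length in kilobases divides the mean of the 3 counts), beside 39.6 over 14916 such genes. With the length of all exons these medians were 33.8 and 13.04 counts per exon kilobase, and again 8 of the 10 lay above. The 2 below it were Nedd4 and Rnf128. Together the 10 genes took 1185, 1197 and 1193 CPM in libraries 1, 2 and 3.

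Among the ligases of receptor signalling, Cblb was the more abundant Cbl protein gene. Cblb, the ligase that sets the need for CD28 costimulation, had 642, 548 and 447 counts, or 177 ± 16.5 CPM (SD, n = 3 libraries). Library 1 was highest at 194 CPM and library 3 lowest at 161, and the exact 95% Poisson intervals of those 2 libraries, 179 to 209 and 146 to 176, did not overlap. Intervals cover counting error only. Cbl, which ubiquitinates activated receptors and kinases, had 262, 226 and 189 counts, or 73.4 ± 5.54 CPM, and its 3 intervals overlapped. Per coding base Cblb exceeded Cbl by 2.41, 2.38 and 2.32 times in the 3 libraries (mean 2.37 ± 0.043). Over summed counts of 1637 and 677 the ratio was 2.37, with an exact 95% Clopper-Pearson interval of 2.17 to 2.60. The third mammalian family member, Cblc, had no count in any library.

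Rnf128, which encodes the membrane ligase GRAIL known from anergic T cells (chromosome X, 139563316 to 139673145, plus strand), was the lowest of the 10. It had 4, 4 and 9 counts, or 1.21, 1.30 and 3.23 CPM. Its exact 95% intervals ran from 0.329 to 3.09 CPM in library 1, from 0.354 to 3.33 in library 2 and from 1.48 to 6.14 in library 3 and overlapped, so no difference between libraries was detectable at this depth. With 17 counts in all it fell short of the 30 summed counts needed for the main test below and was not tested there. At the lower minimums tried as alternatives it did not differ. Per coding length 27.0% of coding genes with any count lay below Rnf128. Factors linked to anergy in the literature stood higher in the same libraries: all 9 on that list were detected, with Dgka, a diacylglycerol kinase, at 637 ± 26.1 CPM and Egr3 at 4.84 ± 1.06. Dtx1, another ligase described in anergy and named after its values were seen, had 118, 160 and 147 counts.

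**Figure D1:**
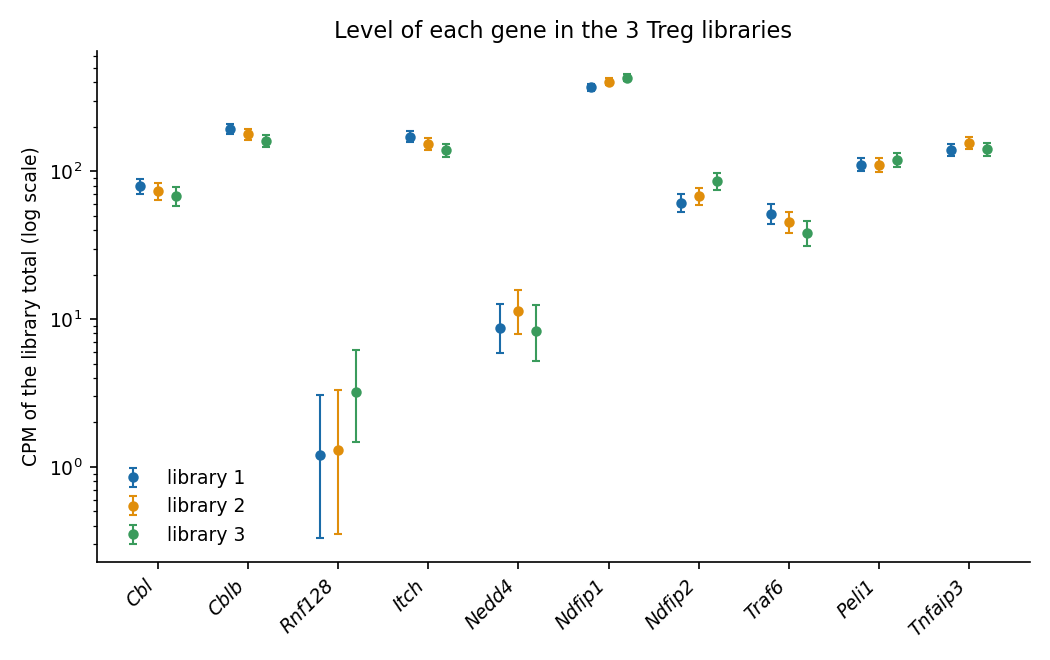
Level of each of the 10 genes in CPM (log scale) in libraries 1, 2 and 3 (blue, orange and green points), with exact 95% Poisson intervals as bars. Ndfip1 lies between 368 and 429 CPM, 7 genes between 38.1 and 194, Nedd4 near 9.46 and Rnf128 between 1.21 and 3.23.

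The HECT ligases were unequal. Itch, whose loss gives the itchy mouse its skin inflammation, had 568, 469 and 387 counts, or 154 ± 16.2 CPM. Library 1 was again highest at 171 CPM and library 3 lowest at 139, with intervals of 157 to 186 and 126 to 154 that did not overlap. Nedd4, the founding member of the family, had 29, 35 and 23 counts, or 9.46 ± 1.67 CPM, with overlapping intervals. Per coding base Itch exceeded Nedd4 by 20.6, 14.1 and 17.7 times (mean 17.5 ± 3.26), and the ratio over summed counts was 17.2 (95% interval 13.9 to 21.6).

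All 7 other Nedd4 family genes listed had counts, and 5 of them were detected. Wwp2 was the highest of these with 1278, 1160 and 933 counts (366 ± 26.7 CPM), followed by Wwp1 at 45.6 ± 8.63 and Smurf2 at 33.4 ± 4.80. However, Wwp1 shared 22.2% of its 31-base runs with other genes, so its level is less certain. Per coding base Wwp2 exceeded Itch by 2.23, 2.46 and 2.39 times (summed ratio 2.35, 95% interval 2.21 to 2.50). Hecw1, with 1, 0 and 0 counts, and Hecw2, with 1 in each library, were at the limit of detection. The family without Itch and Nedd4 had a median of 7.49 counts per coding kilobase, against 183 for Itch and 10.6 for Nedd4.

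The Ndfip adaptors are membrane proteins that bind the WW domains of Nedd4 family ligases and release them from autoinhibition. Ndfip1 was the highest of the 10 genes in CPM and per coding or exon length. It had 1221, 1239 and 1194 counts, or 400 ± 30.6 CPM, and reached 1.73 counts per coding base, with 99.4% of coding genes with any count below it. Its counts stayed nearly equal while the library totals did not: from library 1 to library 3 the count fell by 2.21% and the total by 16.1%. Its CPM was therefore lowest in library 1, at 368 (interval 348 to 389), and highest in library 3, at 429 (interval 405 to 454).

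Ndfip2 (chromosome 14, 105258573 to 105309298, plus strand) had 203, 208 and 238 counts, or 71.4 ± 12.6 CPM. It was lowest in library 1 at 61.2 CPM and highest in library 3 at 85.5, and the intervals of these 2 libraries did not overlap. Ndfip2 and Rnf128 were the 2 genes of the 10 with more counts in the smallest library than in the largest. Per coding base Ndfip1 exceeded Ndfip2 by 8.65, 8.57 and 7.22 times (mean 8.14 ± 0.806), with a summed ratio of 8.10 (95% interval 7.45 to 8.82).

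The near-equal counts of Ndfip1 were shared by other dense genes. Only 95 of 14916 coding genes with any count were at or above its density. Over the 185 tested genes that reached 1.5 counts per coding base, the median ratio of the library 3 to the library 1 count was 0.964, while the totals stood at 0.839. The same median was 0.822 over the 1779 genes at 0.1 to 0.2 counts per coding base, where Cblb, Itch and Tnfaip3 lie. The part of this pattern in the difference of Ndfip1 between libraries, and in its ratios to the other genes, was not tested.

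**Figure D2:**
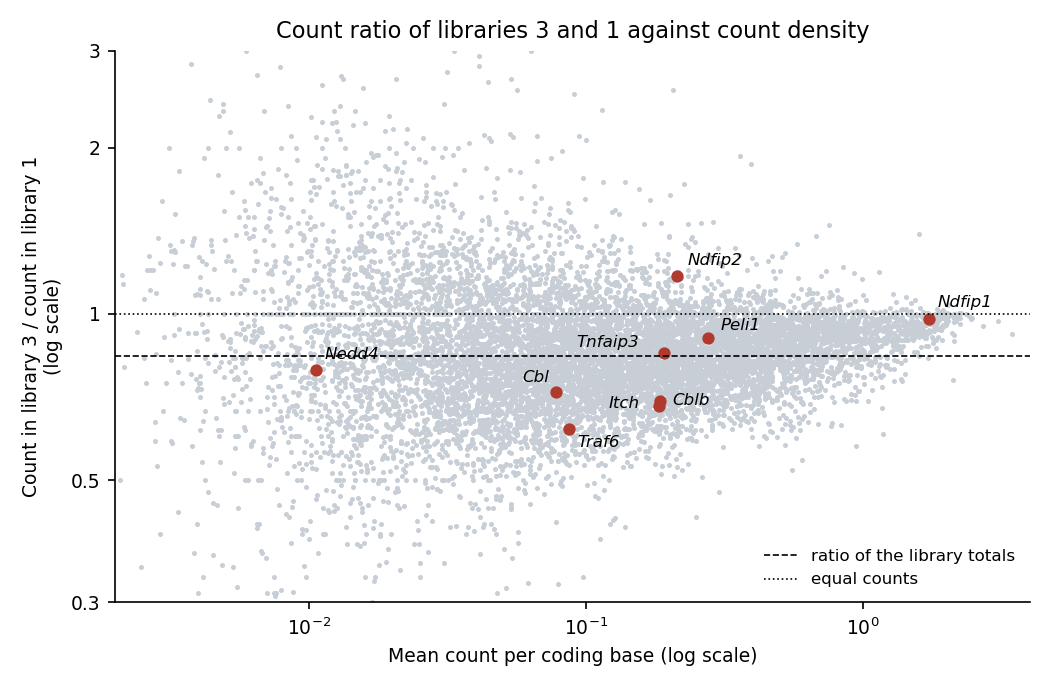
Ratio of the count in library 3 to that in library 1 (log scale) against the mean count per coding base (log scale), for 9981 tested coding genes in grey, of which 85 fall outside the axes, and for 9 of the 10 genes in red (Rnf128 was not tested). Dashed and dotted lines mark the ratio of the library totals, 0.839, and equal counts; Ndfip1 sits at 0.978 at the dense end, Ndfip2 at 1.17 and Traf6 at 0.620.

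In the NF-kB arm, Tnfaip3 (chromosome 10, 19000910 to 19015657, minus strand) had 463, 478 and 393 counts, or 145 ± 8.59 CPM. Its Poisson intervals overlapped in all 3 libraries. Peli1, which encodes a Pellino ligase that targets the NF-kB subunit c-Rel in T cells (chromosome 11, 21091291 to 21150323, plus strand), had 367, 340 and 332 counts, or 113 ± 5.07 CPM. With a coefficient of variation of 4.47%, Peli1 varied least of the 10. Its relatives Peli2 and Peli3 had 2, 0 and 4 and 1, 0 and 1 counts. Traf6, a RING ligase that builds ubiquitin chains for kinase activation (chromosome 2, 101678429 to 101701669, plus strand), had 171, 139 and 106 counts, or 44.9 ± 6.74 CPM. Traf6 was highest in library 1 at 51.6 CPM and lowest in library 3 at 38.1, with intervals that overlapped.

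Because A20 is a known product of NF-kB activity, the bases upstream of a RefSeq start of Tnfaip3 were searched on both strands for the NF-kB consensus motif. The stretch below is chr10:19015411-19015547 (GRCm38.p6, minus strand, from RefSeq), the 137 bases just before that start. They lie inside the Tnfaip3 gene as GENCODE bounds it, which has an exon further upstream that is not shown. Capitals mark the matches.
Tnfaip3: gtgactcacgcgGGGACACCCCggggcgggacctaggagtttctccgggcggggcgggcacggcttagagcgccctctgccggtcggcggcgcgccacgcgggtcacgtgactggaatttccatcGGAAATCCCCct
The 2 matches begin 125 and 12 bases before the start, and the one farther away matches on both strands. Promoter windows of 300 bases were matched for 8 of the 10 genes by symbol, in 10 entries, and Tnfaip3, in 1 of its 2 entries, was the only one of the 8 with a match. Of all 32851 windows, 8.46% held one. A match describes the sequence and does not show binding.

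The partners of A20 were all detected (5 of 5). Tax1bp1, an adaptor that brings A20 to its targets, had 703 ± 28.2 CPM, Tnip1 275 ± 11.8, and Rnf11 was lowest at 4.33 ± 1.96. Per coding base Tax1bp1 exceeded Tnfaip3 by 4.62, 4.28 and 4.94 times. Of the linear ubiquitin and TRAF signalling list all 16 genes were detected. Traf1 led at 312 ± 18.6 CPM, followed per coding length by Traf2 at 253 ± 10.02 and Sharpin, a subunit of the linear ubiquitin ligase, at 160 ± 4.91. The kinase gene Map3k7 and its partner Tab3, which act just below Traf6, were lowest at 12.8 ± 2.15 and 5.96 ± 2.13 CPM; Map3k7 shared 27.9% of its 31-base runs with other genes.

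Ordered by counts per coding kilobase, the 10 genes were Ndfip1 (1728), Peli1 (276), Ndfip2 (213), Tnfaip3 (191), Cblb (185), Itch (183), Traf6 (87.2), Cbl (78.0), Nedd4 (10.6) and Rnf128 (3.35). Ndfip2, Tnfaip3, Cblb and Itch could not be ordered: each neighbouring pair of these kept its order in only 2 of 3 libraries. Their neighbour ratios had intervals of 1.01 to 1.23 for Ndfip2 to Tnfaip3, 0.960 to 1.11 for Tnfaip3 to Cblb and 0.942 to 1.09 for Cblb to Itch. Traf6 stood above Cbl in all 3 libraries, but the interval of 0.987 to 1.27 included 1. The other 5 neighbouring pairs kept their order in 3 of 3 libraries, with intervals above 1. With the length of all exons in place of the coding length, Ndfip2 moved from rank 3 to rank 6 and Tnfaip3 from 4 to 2, and Cbl stood above Traf6. Ndfip1, Nedd4 and Rnf128 kept ranks 1, 9 and 10.

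**Figure D3:**
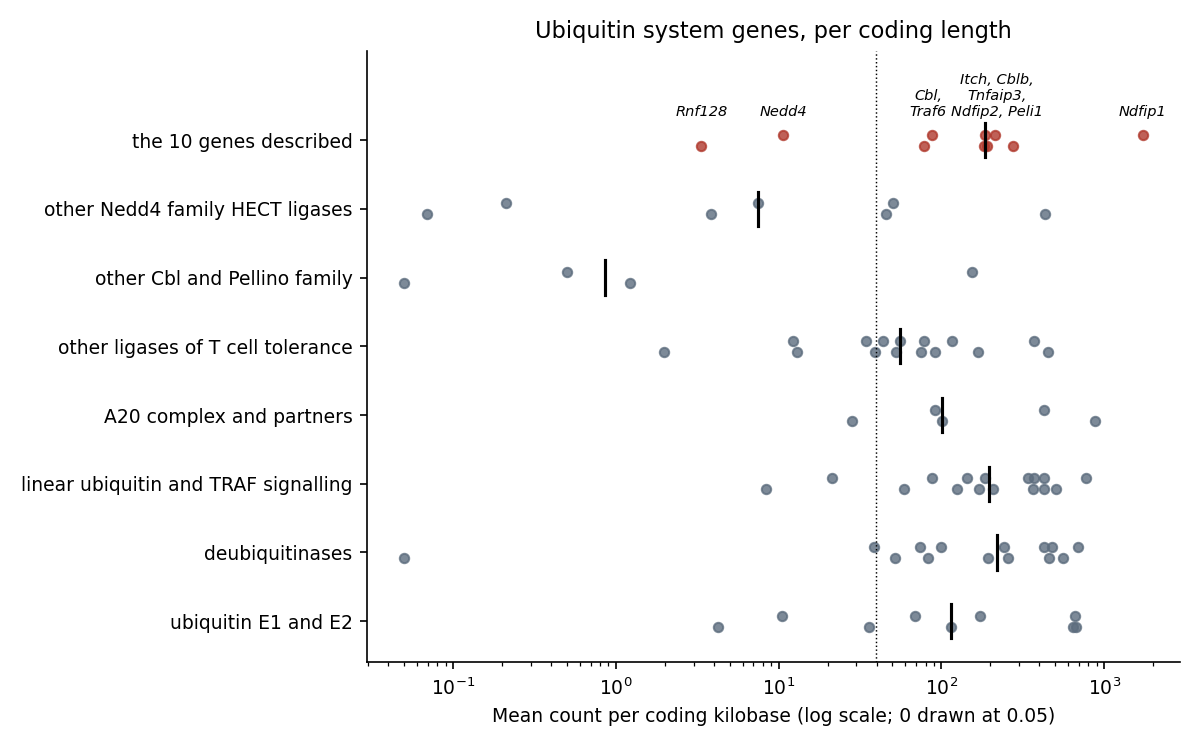
Mean count per coding kilobase (log scale; 0 drawn at 0.05) of the 10 genes in red and of 70 other ubiquitin system genes in grey, 1 row per list, with the list median as a vertical bar and the median of coding genes with any count, 39.6, as a dotted line. Nedd4 and Rnf128 lie left of the dotted line and the other 8 genes right of it.

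Across the rest of the ubiquitin system, 63 of 70 listed genes were detected, with a median of 95.3 counts per coding kilobase. Deubiquitinases, which remove ubiquitin, had a median of 219 over 14 genes. Otub1, known to oppose GRAIL, had 185 ± 7.15 CPM, Ubash3a, a Cbl-binding phosphatase-like protein listed with them, 342 ± 25.2, and Cyld, a brake on NF-kB like A20, 449 ± 37.2, while Usp44 had no count. Per coding base Ubash3a exceeded Cblb by 2.94, 3.04 and 3.06 times. Of the ubiquitin E1 and E2 genes, the E1 gene Uba1 stood at 688 ± 96.95 CPM. Ube2d3 had 113 ± 8.24 CPM and Ube2v1 1.84 ± 0.247, but they shared 63.2% and 72.2% of their 31-base runs with other genes and are uncertain. All 21 substrates and signalling partners were detected. Per coding length these were led by Ctla4 (316 ± 17.1 CPM), Cd28 (283 ± 10.9) and Zap70 (585 ± 57.7).

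Whether a gene took unequal shares of the 3 libraries was asked with a chi-square test of its counts against the totals. Adjustment was by Benjamini-Hochberg over 10043 genes that reached 30 counts in sum. This test compares libraries and allows for Poisson noise only. Of the 9 genes tested, 4 differed: Ndfip1 (adjusted p = 0.00685), Ndfip2 (adjusted p = 0.0100), Itch (adjusted p = 0.0303) and Cblb (adjusted p = 0.0460). Over all genes tested, 22.7% did (2277 of 10043). Nedd4, Cbl, Peli1, Tnfaip3 and Traf6 did not pass, with adjusted p of 0.574, 0.453, 0.664, 0.373 and 0.143 by the chi-square test. A common dispersion that edgeR estimated from these same 3 libraries allows for a coefficient of variation of 9.50%. With it, none of the 9 differed in a negative binomial goodness-of-fit test, where 1.06% of all genes did. The smallest adjusted p of the 9 in that test was 0.740, for Ndfip2. Because this dispersion takes in differences between the libraries, a gene that did not pass is not thereby shown to be equal in them. At an unadjusted p under 0.05 the chi-square test marked 5 of the 9 and the negative binomial test 0 of the 9. By the chi-square test none of the 9 differed without library 1 (13.1% of all genes tested did) or without library 3 (9.43%), and the same 4 differed without library 2 (15.3%).

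**Figure D4:**
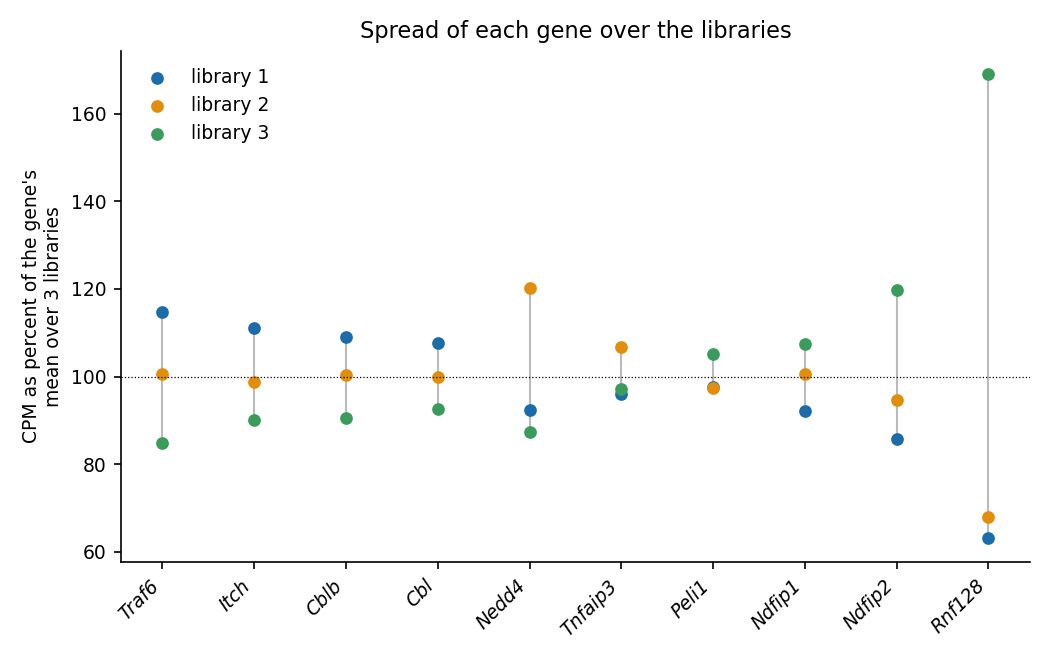
CPM of each gene in libraries 1, 2 and 3 (blue, orange and green) as a percent of its mean over the libraries, with genes ordered by the ratio of library 3 to library 1. Traf6, Itch, Cblb and Cbl are highest in library 1 and lowest in library 3, while Ndfip1, Ndfip2 and Rnf128 are the other way round; Rnf128 rests on 17 counts.

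Coding length differed between the genes that differed in each direction. Itch and Cblb, with coding lengths of 2592 and 2946 bases, had library 3 to library 1 CPM ratios of 0.812 and 0.830. Ndfip1 and Ndfip2, with 705 and 1014 bases, had ratios of 1.17 and 1.40. Among the genes that did not pass the test, the ratio was 1.08 for Peli1 (1254 bases), 0.739 for Traf6 (1590 bases), 1.01 for Tnfaip3 (2325 bases), 0.945 for Nedd4 (2728 bases) and 0.860 for Cbl (2893 bases). Rnf128 (1690 bases), not tested, had 2.68. Over all tested coding genes the median ratio was 1.10 under 1000 bases, 1.03 from 1000 to 1500, 0.988 from 1500 to 2000, 0.945 from 2000 to 3000 and 0.930 above. When each gene was instead set against the total of sparse genes of its own length class, an alternative chosen after seeing the data, 1 of the 9 differed, beside 19.2% of all 9989 genes tested, so the share of the 9 was no higher than that of all genes. That gene was Ndfip2 (adjusted p = 0.0181 by the chi-square test), and Ndfip1, Itch and Cblb had 0.282, 0.243 and 0.341. B cell, dendritic cell and erythroid marker sums were also lowest in library 1 and highest in library 3, as Ndfip2 was. So were the sums of 10 pan T cell genes (7230.4, 7539 and 7779 CPM) and of 10 Treg identity genes (4409.8, 4423 and 4464 CPM). The sum of 6 plasma cell markers (274, 277 and 242 CPM) was instead lowest in library 3. Of these markers, Jchain rose from 1.81 to 4.55 and 24.4 CPM, while Prdm1 and Irf4 were lowest in library 3. The part of these cell type markers in the difference of Ndfip2 was not tested. The part of coding length in the other differences was not tested beyond this alternative.

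Of the other ubiquitin system genes, 19 of 62 tested (30.6%) differed by the chi-square test, beside 22.7% of all genes. None did by the negative binomial test, where 1.06% of all genes did. In that test 4 of the 62 had an unadjusted p under 0.05, as did 869 of all 10043 genes tested. The smallest adjusted p were those of Uba1 (2.45e-15; 2392, 2350 and 1609 counts), Usp4 (4.90e-11; 1561, 1426 and 986) and Usp9x (2.20e-09; 981, 729 and 581), all lowest in library 3. The coding lengths of these genes were 3174, 2901 and 7725 bases, and Usp9x shared 12.1% of its 31-base runs with other genes. Over all tested coding genes, the median library 3 to library 1 CPM ratio was 0.945 from 2000 to 3000 bases and 0.930 above. Values of Uba1, Usp4 and Usp9x under the coding length class alternative are not reported here. The part of coding length in these differences was not tested. By the chi-square test 9 of 13 deubiquitinases tested (69.2%) and 11 of 21 genes of the substrate list (52.4%) differed, beside 22.7% of all genes. The negative binomial test marked 1 of those 21, beside 1.06% of all genes. That gene was Junb, a substrate of Itch named after its values were seen, with 146, 300 and 251 counts (negative binomial goodness of fit with edgeR's dispersion, adjusted p = 0.000659).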

How the data were processed

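Poly(A) RNA-seq was analysed in 3 technical libraries of 1 group. The authors deposited 1 table per library of whole-number counts per Ensembl gene, with no scaling. Per the file headers in the accompanying notes, reads were aligned to mm10 and counted with GENCODE M4; no source used here gives the aligner, counting program, strand use or duplicate handling. Symbols and lengths were taken from GENCODE M21 (GRCm38, the same assembly), and 22195 of 22457 identifiers matched. Coding length is the union of annotated coding bases. All fits ran over the whole table (Python 3.11.15, SciPy 1.17.1, R 4.3.3, edgeR 4.0.16, DESeq2 1.42.0). The chi-square code was tested on simulated data. The 10 genes and all lists were chosen with earlier results of these data known. The text names all 10 genes and, of each list, up to 3 of the highest and 2 of the lowest per coding length, plus the 3 smallest adjusted p in the ubiquitin lists; some list genes are not reported here. Alternatives were other library scalings, count minimums, a negative binomial test, exon length and leaving out each library. The p-values measure only the spread between technical libraries, and depth was 2782259 to 3316275 counts. Promoter windows of Itch and Ndfip1, and protein sequences, were not used here.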

Additional observations from a re-analysis of the deposited data

How the results depend on the processing

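By the chi-square test 4 of the 9 genes tested differed between libraries, beside 22.7% of all genes. It was also 4 of 9 with edgeR's TMM (22.0% of all genes) and with DESeq2's size factors (21.9%). Lower minimums let Rnf128 be tested too, and it did not differ. With a minimum of 10 counts 4 of 10 differed (20.5%), and with a minimum of 1 count 3 of 10 (14.0%). Of the 9, 2 (Ndfip1 and Ndfip2) differed against the total over genes under 0.5 counts per coding base (24.3%). Against that total within the coding length class, chosen after seeing the data, 1 of the 9 differed (19.2%). By the negative binomial test 0 of the 9 did (1.06%). Leaving out 1 library gave 0 to 4: 0 without library 1 (13.1%), 4 without library 2 (15.3%) and 0 without library 3 (9.43%). With exon length, the median of the 10 genes was 33.8 counts per kilobase (13.04 over all coding genes with any count), the Cblb to Cbl ratio 2.84 and the Ndfip1 to Ndfip2 ratio 10.3, while the Itch to Nedd4 ratio moved by less than its SD. Leaving out each library gave 167 to 201 counts per coding kilobase for the median, 2.35 to 2.39 for Cblb to Cbl, 15.9 to 19.2 for Itch to Nedd4 and 7.89 to 8.61 for Ndfip1 to Ndfip2. The cause of these changes was not tested. No paired analysis was possible because the labels give 1 group. Depth limits Rnf128 most; whether the near-equal counts of dense genes limit Ndfip1 was not tested.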
